A study of Homo sapiens with 24 samples.

Results

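The RNA levels of 9 genes that are often amplified in esophageal adenocarcinoma (EAC) were followed across all libraries of the series. They are the receptor tyrosine kinases ERBB2, EGFR, MET and FGFR2, the transcription factor MYC, the G1 cyclins CCND1 and CCNE1, and the endodermal transcription factors GATA4 and GATA6. They were chosen by name, as 9 of the 58735 genes of the count table, and each name matched 1 gene identifier. All 9 passed the filter on low counts in each cell line. The files hold RNA counts and no DNA copy number, so whether any of the genes is amplified in these cells was not measured.

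Receptor tyrosine kinases bind growth factors outside the cell and pass the signal on to the RAS-ERK and PI3K pathways. These pathways raise cyclin D1 and MYC, and the D and E cyclins with their kinases drive cells from G1 into S phase. GATA4 and GATA6 bind DNA at GATA motifs and maintain the gastric and intestinal programme that EAC cells resemble.

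RNA was sequenced from OE33 and SK-GT-4, both established human EAC cell lines. From each line came a Cas9 control clone with intact cGAS and a clone with CRISPR-Cas9 knockout of cGAS (cGAS KO), the cytosolic DNA sensor encoded by CGAS, and both carried a lentiviral Cas9 vector. Each clone was exposed for 48 h to DMSO or to 0.5 μM of the MPS1 kinase inhibitor reversine (MPS1i), which makes cells missegregate chromosomes. The 8 groups held 3 libraries apiece, from batches 1, 2 and 3, and the 24 libraries had 15561268 to 25284177 counted reads. Since a genotype is a clone, the loss of cGAS and other differences between clones cannot be told apart. Nothing in the labels says whether the batches were separate cultures. Within a line, the p-values measure how differences between groups vary from batch to batch, with the level of each batch taken out. Between the lines, whose batches are not stated to be shared, each line's batch levels were also taken out. The p-values of that comparison therefore leave out the spread of levels between batches. In bulk RNA, fewer cells that express a gene and less RNA per cell cannot be told apart.

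CGAS itself checked the labels. In OE33 Cas9 cells it lay between 28.9 and 41.6 CPM (counts scaled to library size), and in 5 of 6 OE33 cGAS KO libraries between 2.31 and 2.82 CPM. The remaining library, cGAS KO with DMSO of batch 2, stood apart at 15.6 CPM, and results that rest on it are given with and without it. In SK-GT-4, CGAS lay between 14.7 and 26.1 CPM in Cas9 and between 2.22 and 6.09 CPM in cGAS KO cells. Of the markers of epithelium, KRT8, KRT18 and KRT19 were abundant in both lines, while the adhesion gene CDH1 lay between 3.83 and 13.8 CPM in the 6 SK-GT-4 Cas9 libraries. SK-GT-4 Cas9 cells also expressed TP63, a squamous marker, between 32.4 and 55.3 CPM, and the endothelial gene PECAM1 between 3.98 and 9.19 CPM. Of the other squamous markers, KRT5 stayed at or under 0.351 CPM in the 12 SK-GT-4 libraries, whereas KRT14 lay between 3.08 and 9.76 CPM. Of the leukocyte markers, PTPRC stayed at or under 0.163 CPM, whereas CD14 lay between 3.41 and 34.5 CPM.

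Levels were first ordered per length, as RPKM (reads scaled to gene length and library size) averaged over the 12 libraries of a line, so that the SD spans clones and treatments. In OE33, MET led at 474 ± 139 RPKM (SD, n = 12), a level above that of 99.7% of the genes tested in that line. ERBB2 at 145 ± 57.8 RPKM, MYC at 105 ± 29.8 RPKM and CCND1 at 74.5 ± 13.2 RPKM followed, and neighbours in this run of 3 overlapped in their mean ± SD. EGFR had 22.9 ± 9.09 RPKM, clear of its neighbours on both sides. CCNE1 at 8.60 ± 1.56, GATA6 at 5.57 ± 2.08, GATA4 at 3.07 ± 0.829 and FGFR2 at 2.42 ± 1.85 RPKM closed the order, each overlapping the next in its mean ± SD.

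The order in SK-GT-4 was different. CCND1 led at 107 ± 37.8 RPKM (SD, n = 12), MET had 66.4 ± 33.2 RPKM and MYC 49.9 ± 13.7 RPKM, and neighbours in this order overlapped in their mean ± SD, while CCND1 and MYC did not. EGFR at 11.6 ± 7.48, ERBB2 at 9.61 ± 5.77 and GATA6 at 8.45 ± 3.38 RPKM formed a second overlapping run. CCNE1 had 3.25 ± 1.31 RPKM. FGFR2 at 0.124 ± 0.169 RPKM and GATA4 at 0.0555 ± 0.0385 RPKM were close to the limit of detection, with 0 to 92 and 2 to 12 reads per library. ERBB2 thus stood next to MET in OE33 and below CCND1, MET, MYC and EGFR in SK-GT-4.

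**Figure D1:**
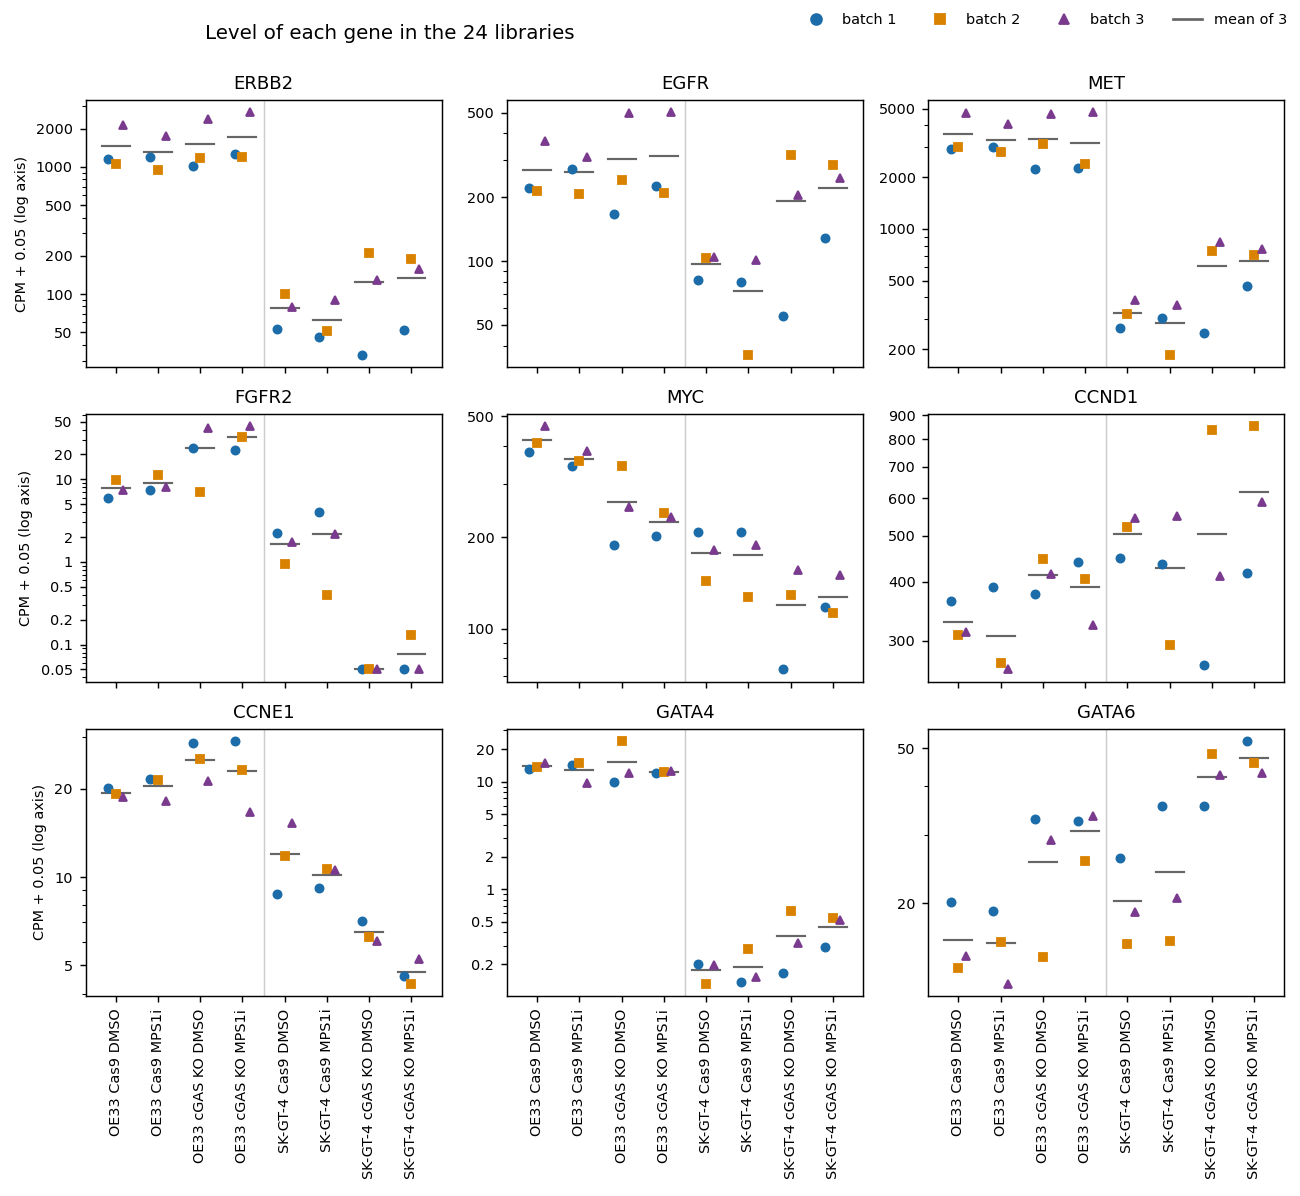
Level of each of the 9 genes in every library, in CPM on a log axis, by cell line, clone and treatment, with 1 point per batch. ERBB2 and MET lie far higher in OE33 than in SK-GT-4, GATA4 is close to 0 in SK-GT-4, and FGFR2 falls to 0 to 2 reads in each cGAS KO library of SK-GT-4.

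The first comparison asked how the untreated lines differ, with 3 Cas9 DMSO libraries of OE33 against 3 of SK-GT-4. OE33 had more RNA of 7 of the 9 genes, and the differences for GATA4, ERBB2 and MET exceeded 10-fold. A gene was called where its p in the quasi-likelihood test of edgeR, adjusted by Benjamini-Hochberg over all genes tested, did not exceed 0.01, as was the case for 26.2% of 25181 genes in this comparison. The median log2 difference (OE33 minus SK-GT-4) was 1.43 over the 9 genes and -0.17 over all genes tested. Without batch 3 the call held for ERBB2, MET and GATA4, 3 of the 7. The batches of the 2 lines are not stated to be the same, and each line was blocked by its own batches. Without this block the call held for 5 of the 7 and was lost for EGFR and CCNE1. The SE of the ERBB2 difference was 0.60 without the block and 0.34 with it.

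ERBB2, which encodes HER2, the partner that other EGF receptor family members prefer for pairing, lies on chromosome 17 at 39687914 to 39730426 of GRCh38. Its levels in OE33 Cas9 DMSO cells were 1155, 1063 and 2133 CPM in batches 1, 2 and 3, against 53.1, 100.5 and 78.7 CPM in SK-GT-4. Every OE33 library exceeded every SK-GT-4 library many times over. The log2 difference was 4.18 ± 0.34 (SE), an 18.1-fold difference (adjusted p = 3.72e-09, edgeR).

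The genes beside ERBB2 were examined with it. Within 1 Mb on either side, measured between lower coordinates, the tested genes had a median log2 difference of 0.76 (n = 69), whereas within 5 Mb it was -0.06 and over chromosome 17 it was -0.45. GRB7, an adaptor that binds activated receptors, had 313 CPM in OE33 and 9.29 CPM in SK-GT-4 Cas9 DMSO cells, a log2 difference of 5.26 (adjusted p = 1.31e-12, edgeR). PGAP3 and MIEN1, the nearest genes at lower and higher coordinates with more than 2 CPM, differed by 3.67 and 2.98 on the log2 scale. Higher levels in OE33 extended over STARD3 (2.39), CDK12 (2.11) and MLLT6 (3.11) at lower coordinates and over GSDMB (4.78), ORMDL3 (2.85), PSMD3 (2.77) and MED24 (2.67) at higher coordinates. Beyond MED24, THRA (-2.05), TOP2A (-1.03) and IGFBP4 (-4.06) were lower in OE33. PPP1R1B, inside the run, was also called lower in OE33, at 0.0168 against 2.11 CPM. Of the protein-coding genes of the window with at least 2 CPM in either line, 11 of 17 at lower and 7 of 19 at higher coordinates were called higher in OE33, and 1 and 6 were called lower.

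**Figure D2:**
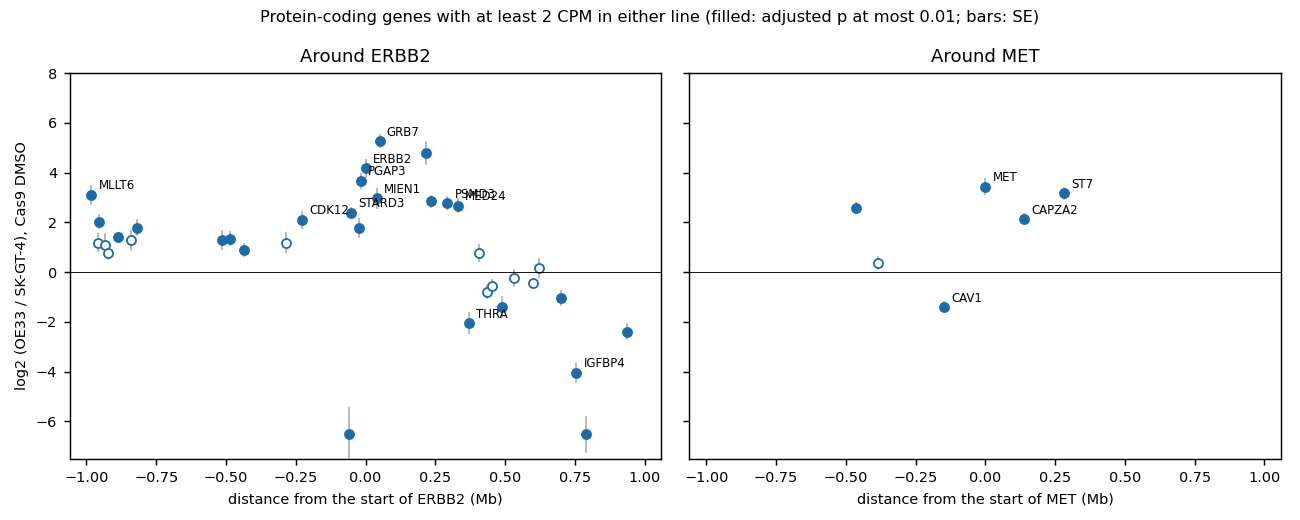
Log2 difference between OE33 and SK-GT-4 Cas9 DMSO cells for protein-coding genes with at least 2 CPM in either line, by distance in Mb from the lower coordinate of ERBB2 and of MET. A run of genes around ERBB2 lies above 0, with GRB7 at 5.26 and ERBB2 at 4.18, and beside MET (3.43) the gene ST7 lies at 3.17 and CAV1 at -1.41.

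MET, the receptor of hepatocyte growth factor, lies on chromosome 7 at 116672390 to 116798386. It had 2900, 3014 and 4742 CPM in the 3 OE33 Cas9 DMSO libraries and 267.3, 321.4 and 385.8 CPM in those of SK-GT-4. The log2 difference was 3.43 ± 0.30 (SE), 10.8-fold (adjusted p = 1.31e-08, edgeR). At higher coordinates, CAPZA2 and ST7 were also called higher in OE33, by 2.13 and 3.17 on the log2 scale. At lower coordinates CAV2 did not pass the test (0.35, adjusted p = 0.295) and CAV1 was called lower in OE33 (-1.41), while TES, farther out, was called higher (2.58).

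EGFR, the receptor of EGF, TGF-alpha and amphiregulin, lies on chromosome 7 at 55019021 to 55211628. It had 221, 214.8 and 367.5 CPM in OE33 and 81.7, 103 and 104.7 CPM in SK-GT-4, a log2 difference of 1.43 ± 0.40 (SE, adjusted p = 0.00698, edgeR). The groups did not overlap, but without batch 3 or without the batch block the call was lost. Its neighbours SEC61G, LANCL2 and VOPP1 did not pass the test, at 0.45, 0.45 and -0.17 on the log2 scale. FGFR2, a receptor of fibroblast growth factors on chromosome 10 (121478334 to 121598458, minus strand), was the lowest of the 4 receptors in both lines. It had 5.95, 9.80 and 7.47 CPM in OE33 and 2.20, 0.904 and 1.67 CPM in SK-GT-4. The log2 difference was 2.40 ± 0.52 (SE, adjusted p = 0.00112, edgeR).

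MYC, on chromosome 8 at 127735434 to 127741434, had 381.3, 408.8 and 463.2 CPM in OE33 Cas9 DMSO cells. In SK-GT-4 it had 208.2, 143.3 and 181.6 CPM. All OE33 libraries lay above all SK-GT-4 libraries, with a log2 difference of 1.24 ± 0.24 (SE, adjusted p = 0.000271, edgeR). FAM84B, the nearest protein-coding gene at lower coordinates with more than 1 CPM, was called higher in OE33 by 2.94 on the log2 scale.

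The cyclins differed less. CCNE1, the partner of CDK2 at the G1/S transition (chromosome 19, 29811898 to 29824308), had 20.02, 19.1 and 18.8 CPM in OE33 and 8.73, 11.8 and 15.3 CPM in SK-GT-4. The log2 difference of 0.71 ± 0.20 (SE) passed the test (adjusted p = 0.00703, edgeR), and it was not called when any 1 batch was left out or without the batch block. CCND1, the partner of CDK4 and CDK6 (chromosome 11, 69641087 to 69654474), was the only member apart from GATA6 with a fitted value below 0. It had 363.9, 308.1 and 313.1 CPM in OE33 and 449.1, 522.7 and 544.4 CPM in SK-GT-4, and its log2 difference of -0.63 (95% interval -1.23 to -0.04) was not called (adjusted p = 0.0945).

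GATA4 showed the widest separation of the 9. It lies on chromosome 8 at 11676959 to 11760002 and had 13.1, 13.6 and 14.9 CPM in OE33 Cas9 DMSO cells, against 3, 2 and 4 reads in the 3 SK-GT-4 libraries. Summed over the libraries, 815 reads stood against 9, a depth-adjusted ratio of 109 (exact 95% interval 57.3 to 240, counting error only). GATA6, on chromosome 18 at 22169443 to 22202528, did not follow it. It had 20.1, 13.6 and 14.6 CPM in OE33 and 26.1, 15.7 and 19.0 CPM in SK-GT-4, groups that overlapped (log2 difference -0.32, 95% interval -0.85 to 0.21, adjusted p = 0.357).

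Genes that work with the 9 were compared in the same fit. Of 15 tested partners and ligands of the receptors, 9 were called higher in OE33 and 2 lower (median log2 difference 1.45). ERBB3, the partner of HER2, had 73.5 CPM in OE33 and 5.19 CPM in SK-GT-4, and the ligand AREG had 336 against 55.2 CPM. The 2 lower ones were the ligand NRG1, at 0.120 against 13.7 CPM, and its receptor ERBB4, at 0.0168 against 1.70 CPM. Of 12 tested output genes of ERK signalling, 5 were called higher and 1 lower in OE33, with PHLDA1 at 630 against 120 CPM and SPRY2 at 12.4 against 37.7 CPM.

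Cell cycle genes split both ways. Of 15 G1 partners of the cyclins, 5 were called higher and 4 lower in OE33. The CDK inhibitor genes CDKN2A and CDKN2B had 611 and 22.7 CPM in OE33 Cas9 DMSO cells and 0 reads in each of the 12 SK-GT-4 libraries. CDK2 had 51.3 CPM in OE33 against 127 CPM in SK-GT-4. Of 9 tested genes of the MYC network 2 were called higher and 1 lower, and of 11 MYC targets 3 were called higher, among them NCL by 1.03 on the log2 scale. Of 14 tested GATA partners and gut transcription factors, 5 were called higher and 2 lower, with CDX2 at 13.3 against 0.134 CPM.

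Of 7 other genes recurrently amplified in this cancer 2 were called higher in OE33 and 1 lower. The higher ones were CDK6 and PIK3CA, by 1.33 and 0.85 on the log2 scale. Epithelial markers moved with the receptors, 5 of 5 being called higher in OE33, CDH1 at 477 against 9.10 CPM. Stromal and immune markers were lower in OE33 for 6 of 7, with COL1A1 at 1.43 against 40.9 CPM. The part of these cell state differences in the members' values was not tested.

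The next comparison set cGAS KO against Cas9 clones within OE33. MYC RNA was lower in the cGAS KO clone under both treatments, and FGFR2 and GATA6 RNA was higher under MPS1i. With DMSO the test called 1.47% of 20426 genes and 1 of the 9 members, and with MPS1i it called 2.84% of genes and 3 of the 9. The median log2 difference (cGAS KO minus Cas9) over the 9 was 0.07 with DMSO and 0.14 with MPS1i, against -0.01 and -0.02 over all genes tested.

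MYC in OE33 cGAS KO cells had 189.2, 343.7 and 250.8 CPM with DMSO, below the 381.3 to 463.2 CPM of Cas9 cells. The log2 difference was -0.73 ± 0.15 (SE, adjusted p = 0.0089, edgeR). With MPS1i it had 202.3, 240.4 and 233 CPM against 343.9, 355.8 and 383.7 CPM, a difference of -0.71 ± 0.15 (SE, adjusted p = 0.00724, edgeR). All 3 batches lay below 0 under each treatment. The cGAS KO library with the odd CGAS level gave the highest MYC value of its clone, and without it the DMSO difference was -0.96 (adjusted p = 5.22e-05, edgeR).

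FGFR2 in OE33 cGAS KO cells had 23.8, 7.04 and 41.7 CPM with DMSO, and 5.95, 9.80 and 7.47 CPM in Cas9 cells. Batches 1 and 3 were high and batch 2, the odd library, lay within the Cas9 range, so the groups overlapped. The log2 difference of 1.52 ± 0.39 (SE) was not called (adjusted p = 0.0335, edgeR), and without that library it was 2.13 (adjusted p = 5.84e-07). With MPS1i all 3 batches were high, 22.6, 32.0 and 43.7 CPM against 7.38, 11.1 and 8.04 CPM. This difference, 1.82 ± 0.38 (SE), was called (adjusted p = 0.0074, edgeR).

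GATA6 behaved alike. It had 32.8, 14.6 and 29.0 CPM with DMSO in cGAS KO against 20.1, 13.6 and 14.6 CPM in Cas9 cells, a log2 difference of 0.60 ± 0.19 (SE, adjusted p = 0.0822, edgeR). Without the odd library it was 0.85 (adjusted p = 0.00184). With MPS1i the levels were 32.5, 25.7 and 33.4 CPM against 19.1, 15.8 and 12.4 CPM, and the difference of 0.94 ± 0.19 (SE) was called (adjusted p = 0.00592, edgeR). In the odd library FGFR2 (7.04 CPM) and GATA6 (14.6 CPM) lay within the range of the 6 Cas9 libraries. MYC (343.7 CPM) lay just under the lowest Cas9 value of 343.9 CPM and above the 250.8 CPM reached by the other 5 cGAS KO libraries. CCND1 (447.9 CPM) and GATA4 (24.0 CPM) lay above both ranges.

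These calls did not hold without batch 1 or without batch 3, where none of the 9 was called in either treatment. Over all genes, 95 of 18974 were called with DMSO and 123 with MPS1i without batch 1. Without batch 3 the numbers were 11 and 18 of 18640, so the loss of calls is not particular to the members. Without batch 2 MYC and FGFR2 were called with DMSO and FGFR2 and GATA6 with MPS1i, beside 393 and 375 of 19250 genes. Without the batch block or with edgeR's own filter on low counts, none was called either, although the direction stayed. Of all genes, 15 and 17 were called without the block, and 189 and 390 of 13985 with that filter. The other 6 members were not called in OE33. The log2 differences of ERBB2 were 0.02 with DMSO and 0.32 with MPS1i (95% interval 0.03 to 0.61, adjusted p = 0.180), those of EGFR 0.07 and 0.11, and those of MET -0.14 and -0.15. CCND1 was higher in all 3 batches under both treatments, by 0.31 and 0.33, without passing the test (adjusted p = 0.267 and 0.185). Without the odd library its DMSO difference was 0.23 (adjusted p = 0.427, edgeR).

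Chromosomal neighbours were described beside each member, as the median log2 difference of the genes within 5 Mb and over the chromosome, with DMSO. GATA6 (0.60) lay in a raised region, with a median of 0.52 over 36 neighbours and 0.45 over the 283 tested genes of chromosome 18. On that chromosome 24 genes were called higher and 0 lower, and 233 of 283 lay above 0. ABHD3 and MIB1, the nearest genes at lower coordinates, were called higher by 0.94 and 0.74 on the log2 scale. MYC (-0.73) lay in a lowered region, with a median of -0.33 over 59 neighbours, 15 of them above 0, and -0.21 over chromosome 8. Taken by batch, the neighbour medians were 0.53, 0.19 and 0.65 for GATA6 and -0.44, -0.04 and -0.39 for MYC in batches 1, 2 and 3. The odd library is that of batch 2. FGFR2 (1.52) did not follow its region, where the median was -0.07 over 70 neighbours and -0.01 over chromosome 10. GATA4, on the other arm of chromosome 8 from MYC, had a value of 0.05 beside a neighbour median of -0.04. DNA copy number was not measured, and its part in these values was not tested.

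In SK-GT-4 the same comparison called none of the 9 genes. The test called 1.76% of 22782 genes with DMSO and 1.41% with MPS1i. At an unadjusted p under 0.05 lay 4 members with DMSO and 7 with MPS1i, beside 3978 and 4203 of the 22782 genes. DESeq2 called FGFR2, CCNE1 and GATA6 under each treatment, beside 1495 of the 22782 genes with DMSO and 1450 with MPS1i. The median log2 difference over the 9 was 0.42 with DMSO and 0.88 with MPS1i, against 0.03 and -0.03 over all genes tested. The biological coefficient of variation was 34.0% in SK-GT-4 and 14.97% in OE33.

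FGFR2 was the clearest of them. The SK-GT-4 Cas9 libraries held 43, 22 and 45 reads of FGFR2 with DMSO and 92, 6 and 41 with MPS1i, whereas the cGAS KO libraries held 0, 0 and 0 and then 0, 2 and 0. With DMSO the cGAS KO level was at least 29.3-fold lower, taking 3 reads over the group as the floor (adjusted p = 0.0114, edgeR). With MPS1i the ratio was 79.5 (exact 95% interval 21.6 to 663, counting error only, adjusted p = 0.0174 in edgeR). Without batch 2 FGFR2 was called under both treatments (adjusted p = 0.00853 and 0.00577, edgeR). The neighbours of FGFR2 were also low, with a median log2 difference of -0.63, 13 of 72 above 0, and -0.35 over chromosome 10.

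CCNE1 was lower in the SK-GT-4 cGAS KO clone in every batch. It had 7.03, 6.21 and 6.02 CPM with DMSO against 8.73, 11.8 and 15.3 CPM in Cas9 cells, a log2 difference of -0.88 ± 0.25 (SE, adjusted p = 0.0719, edgeR). With MPS1i it had 4.54, 4.27 and 5.22 CPM against 9.16, 10.6 and 10.5 CPM, a difference of -1.11 ± 0.25 (SE, adjusted p = 0.0299, edgeR). The groups did not overlap in either treatment, and the median of its neighbours was -0.17. GATA6 was higher in every batch, with 35.4, 48.2 and 42.7 CPM against 26.1, 15.7 and 19.0 CPM with DMSO (log2 difference 1.10 ± 0.28, SE, adjusted p = 0.0489, edgeR). With MPS1i it had 52.2, 45.8 and 43.1 CPM against 35.4, 16.001 and 20.6 CPM (1.01 ± 0.28, SE, adjusted p = 0.0702, edgeR). Here the neighbours of GATA6 stood at a median of 0.08 and chromosome 18 at 0.00, unlike in OE33.

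EGFR and MET varied between batches in this clone. EGFR had 55.3, 316.5 and 205 CPM in cGAS KO DMSO cells against 81.7, 103 and 104.7 CPM in Cas9 cells, so that batch 1 lay below the Cas9 range and batches 2 and 3 above it. The log2 difference was 0.83 (95% interval -0.28 to 1.93, adjusted p = 0.451). MET followed the same batches, with 246.9, 745.8 and 841.9 CPM against 267.3, 321.4 and 385.8 CPM (0.82, 95% interval 0.02 to 1.61, adjusted p = 0.275). With MPS1i both receptors were higher in every batch, by 1.45 and 1.14 on the log2 scale, and neither passed the test (adjusted p = 0.145 and 0.112).

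Both receptors lie on chromosome 7. In SK-GT-4 the tested genes of chromosome 7 had a median log2 difference of 0.50 with DMSO, with 856 of 1138 above 0, 26 called higher and 3 called lower. The neighbours of EGFR had a median of 0.73, 24 of 30 above 0, and those of MET a median of 0.31. The nearest called neighbour of EGFR was COBL (4.03, adjusted p = 0.00384). ERBB2 in the same libraries went from 33.2 CPM in batch 1 to 209.4 CPM in batch 2 and 130.2 CPM in batch 3, with a neighbour median of -0.02. CCND1 (-0.11) lay in a lowered region, with 87 of 232 neighbours above 0 and a median of -0.26. MYC had values of -0.59 with DMSO and -0.46 with MPS1i, below 0 in every batch, while its neighbours had a median of 0.13, and GATA4 remained at 2 to 12 reads per library.

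**Figure D3:**
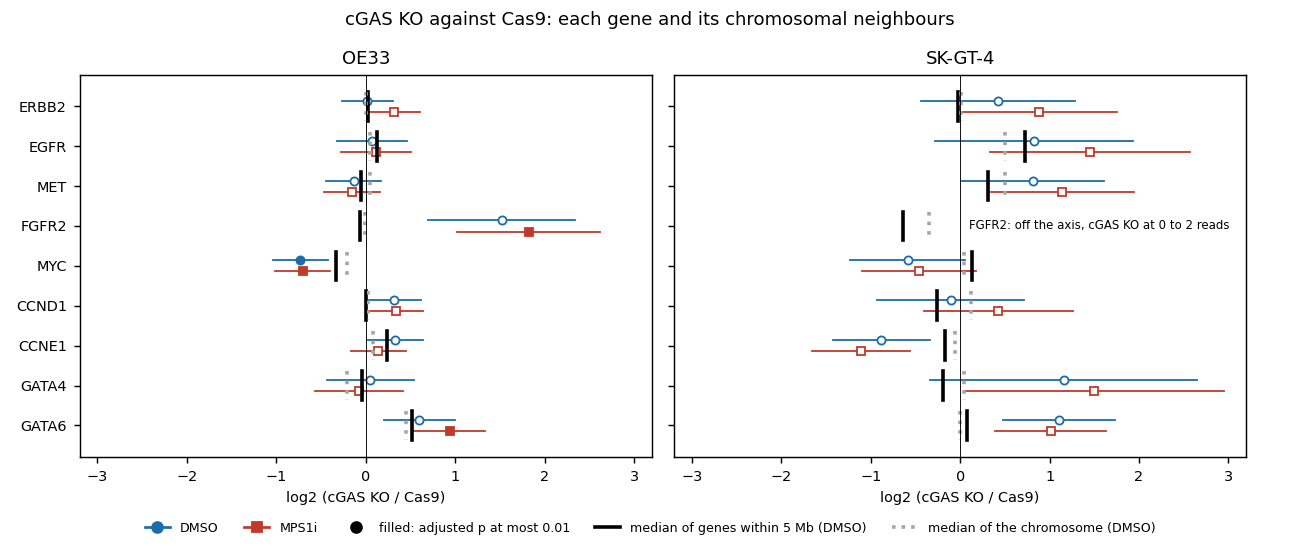
Log2 difference between cGAS KO and Cas9 cells for the 9 genes in OE33 and SK-GT-4, with DMSO and with MPS1i, and its 95% interval. Beside it stand the DMSO medians of the tested genes within 5 Mb and of the chromosome. With DMSO, GATA6 in OE33 (0.60) lies near its chromosome's median of 0.45, whereas FGFR2 in OE33 lies above its neighbours. FGFR2 in SK-GT-4, with 0 to 2 reads in the cGAS KO libraries, is off the axis, and only its medians are drawn.

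The lines were compared in the effect of cGAS KO, in 1 fit of all libraries chosen after the data were seen, which called 1.66% of genes with DMSO and 1.57% with MPS1i. FGFR2 was called in both, since it was higher in the OE33 and lower in the SK-GT-4 clone. CCNE1 differed by 1.23 with DMSO and 1.26 with MPS1i on the log2 scale and was not called (adjusted p = 0.015 and 0.013, edgeR). The other 7 members were not called, MET coming nearest with -1.28 under MPS1i (95% interval -2.10 to -0.46, adjusted p = 0.0788).

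Genes of the same pathways were counted in the clone comparisons. In OE33, of 14 tested receptor partners and ligands, ERRFI1 (-1.08), a feedback inhibitor of EGFR, and FGFR3 (-1.38) were called lower with DMSO, and ERRFI1 (-1.10) was called lower and NRG1 (3.97) higher with MPS1i. Of the 13 tested GATA partners, FOXA2 (1.33 and 1.39) and FOXA3 (2.25 and 2.50) were called higher under both treatments. Of 9 MYC network genes MXI1, an antagonist of MYC, was called lower (-0.95 and -0.81). Of 11 MYC targets none was called with DMSO and LDHA (-0.60) was called lower with MPS1i. Of the 7 other recurrently amplified genes, VEGFA was called lower under both treatments (-0.87 and -0.88) and CDK6 with MPS1i (-0.77). CDKN1A, an inhibitor of the cyclin-CDK complexes, was called higher with DMSO (0.83). For the MYC targets with DMSO 1 lay at an unadjusted p under 0.05, beside 3569 of all 20426 genes, and the median was -0.12.

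In SK-GT-4, of 15 tested receptor partners and ligands, ERBB3 (2.03) and BTC (1.98), a ligand of EGFR, were called higher with DMSO, and ERBB3 (2.29), BTC (2.08) and MST1R (2.53), a receptor related to MET, with MPS1i. Of 14 GATA partners, HNF4A was called higher under both treatments (3.41 and 3.72). The epithelial marker CDH1 rose with them, by 3.53 and 3.54 on the log2 scale, from 3.83 to 13.8 CPM in Cas9 libraries to 21.4 to 224 CPM in cGAS KO libraries. EPCAM was called higher with DMSO (2.71), and all 5 epithelial markers lay above 0 in both treatments. Their part in the higher receptor values of this clone was not tested. No output gene of ERK was called in either line, with 5 of 12 at an unadjusted p under 0.05 in OE33 under each treatment and 2 and 1 in SK-GT-4. Of all genes, 3569 and 4347 of 20426 in OE33 and 3978 and 4203 of 22782 in SK-GT-4 lay under that p.

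MPS1i itself was then compared with DMSO within each clone, the comparison that asks what induced chromosome missegregation does to these genes. None of the 9 was called in any of the 4 clones by edgeR or DESeq2, and none reached an unadjusted p under 0.05 in edgeR. The share of all genes called was 0.0049% (1 gene) in OE33 Cas9 cells and 0% in the other 3 clones, so the absence of calls is not particular to the members. At an unadjusted p under 0.05 lay 1420 genes in each OE33 clone, 566 in SK-GT-4 Cas9 and 317 in SK-GT-4 cGAS KO cells. DESeq2 called 22 and 6 genes in the OE33 Cas9 and cGAS KO clones and 1 and 0 in those of SK-GT-4.

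The fitted values of the 9 were small in OE33. In Cas9 cells they ran from -0.23 to 0.17 (median -0.11, lowest adjusted p 0.803, edgeR), and in cGAS KO cells from -0.27 to 0.47 (median -0.12, lowest adjusted p 0.79, edgeR). The highest of these, that of FGFR2, was -0.12 without the odd library. Without it GATA4 had 0.12 and MYC 0.01, and the cGAS KO values ran from -0.16 (CCNE1) to 0.20 (ERBB2). MYC was lower in all 3 batches of OE33 Cas9 cells, 343.9, 355.8 and 383.7 CPM with MPS1i against 381.3, 408.8 and 463.2 CPM with DMSO. The log2 difference of -0.23 had a 95% interval of -0.54 to 0.07. For ERBB2 in the same cells the interval was -0.44 to 0.14, and for MET it was -0.42 to 0.20. The widest interval in OE33 Cas9 cells was that of FGFR2, -0.65 to 0.99.

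In SK-GT-4 the intervals were wider. In Cas9 cells the 9 values ran from -0.34 to 0.23 (median -0.16, lowest adjusted p 0.981, edgeR). EGFR there had 79.7, 36.05 and 100.9 CPM with MPS1i against 81.7, 103 and 104.7 CPM with DMSO, and its interval of -1.43 to 0.74 covers changes of more than 2-fold. In cGAS KO cells, CCNE1 was lower with MPS1i in all 3 batches, 4.54, 4.27 and 5.22 CPM against 7.03, 6.21 and 6.02 CPM (log2 difference -0.46, 95% interval -1.004 to 0.09, adjusted p = 0.966, edgeR). FGFR2 in these cells rests on 2 reads in all. The difference of the MPS1i effect between Cas9 and cGAS KO cells was called for no member by edgeR's test, which called 0% of all genes in each line, with 383 and 550 genes of OE33 and SK-GT-4 at an unadjusted p under 0.05 and 0 in DESeq2.

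**Figure D4:**
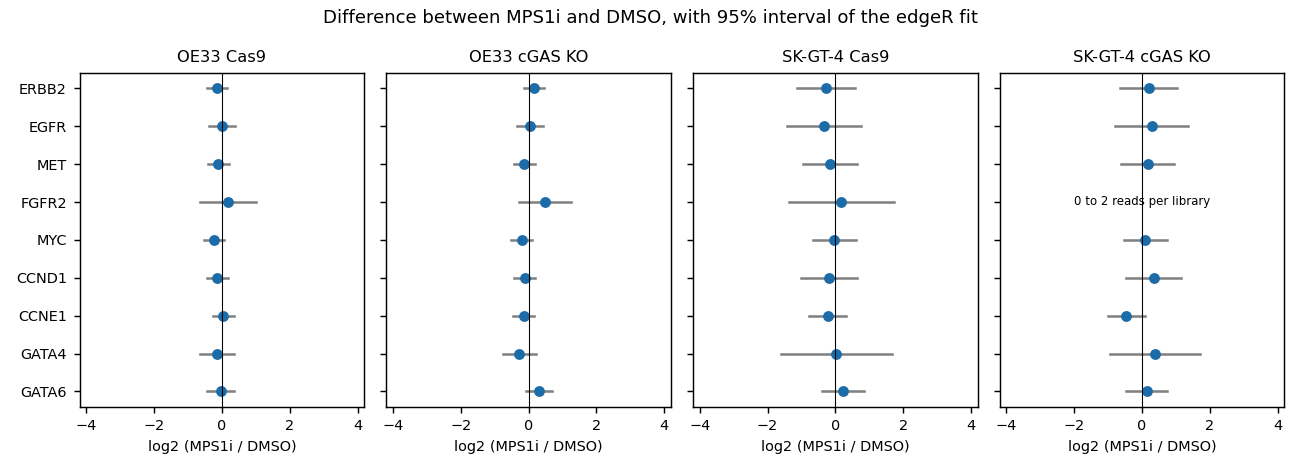
Fitted log2 difference between MPS1i and DMSO for the 9 genes in the 4 clones, each as 1 point with its 95% interval. FGFR2 in SK-GT-4 cGAS KO cells, with 0 to 2 reads per library, is not drawn. All intervals drawn include 0, and those of OE33 are narrower than those of SK-GT-4.

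Lists of related genes gave 0 calls with MPS1i too. Proliferation genes lay below 0 for 10 of 10 in each OE33 clone (medians -0.28 and -0.29, against 0.01 and 0.00 over all genes tested) and for 10 of 10 in SK-GT-4 Cas9 cells (-0.46). In the cGAS KO clone of SK-GT-4, 3 of the 10 had values above 0 (median -0.13). In each OE33 clone 4 of them had an unadjusted p under 0.05. PLK1, a mitotic kinase, had values of -0.54 in both OE33 clones. MYC targets lay below 0 for 10 of 11 in OE33 Cas9 and 11 of 11 in OE33 cGAS KO cells (medians -0.20 and -0.28), 4 of 11 with an unadjusted p under 0.05 in each. In the Cas9 and cGAS KO clones of SK-GT-4, 4 and 5 of the 11 had values above 0 (medians -0.24 and -0.02), 0 with an unadjusted p under 0.05. MXD4, an antagonist of MYC, had values of 0.70 and 0.59, above 0 in all 3 batches of each OE33 clone. Of the p53 targets, GDF15 had values of 0.69 and 0.74 in the OE33 clones and 1.78 in SK-GT-4 Cas9 cells, with no adjusted p under 0.40.

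Of the 4 receptors, 3 moved with the batch in OE33, a pattern described after the data were seen and with no test. All 4 libraries of batch 3, whatever the clone and treatment, lay above the other 8 for ERBB2, EGFR and MET. For ERBB2 they held 2133, 1753, 2393 and 2705 CPM in Cas9 DMSO, Cas9 MPS1i, cGAS KO DMSO and cGAS KO MPS1i cells, and the other 8 between 946.7 and 1266 CPM. For EGFR the batch 3 libraries held 309.9 to 504.6 CPM and the others 167.3 to 272.7 CPM. MET had 4080 to 4797 CPM against 2239 to 3124 CPM.

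The ratio of batch 3 to the mean of the others was 2.00 for ERBB2, 1.91 for EGFR and 1.69 for MET, and the other 6 members were not set apart. Of all genes tested in OE33, 6.90% had all batch 3 libraries above the others and 5.53% below. Of the 14 tested receptor partners and ligands, 7 were also above (ERBB3, AREG, EREG, BTC, MST1R, FGFR3 and FGFR4), and 13 of 14 had a positive log2 difference, with a median of 0.66. Of the 5 epithelial markers, CDH1 and EPCAM were above as well and KRT18 lay below (ratio 0.839), and 3 of 11 MYC targets lay below. Each group had 1 library in each batch. In SK-GT-4 no member had a batch set apart from the others. Of all genes tested there, from 0.193% (batch 3, below) to 1.3% (batch 1, below) had a given batch set apart in a given direction. The absence in SK-GT-4 is thus not particular to the members.

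**Figure D5:**
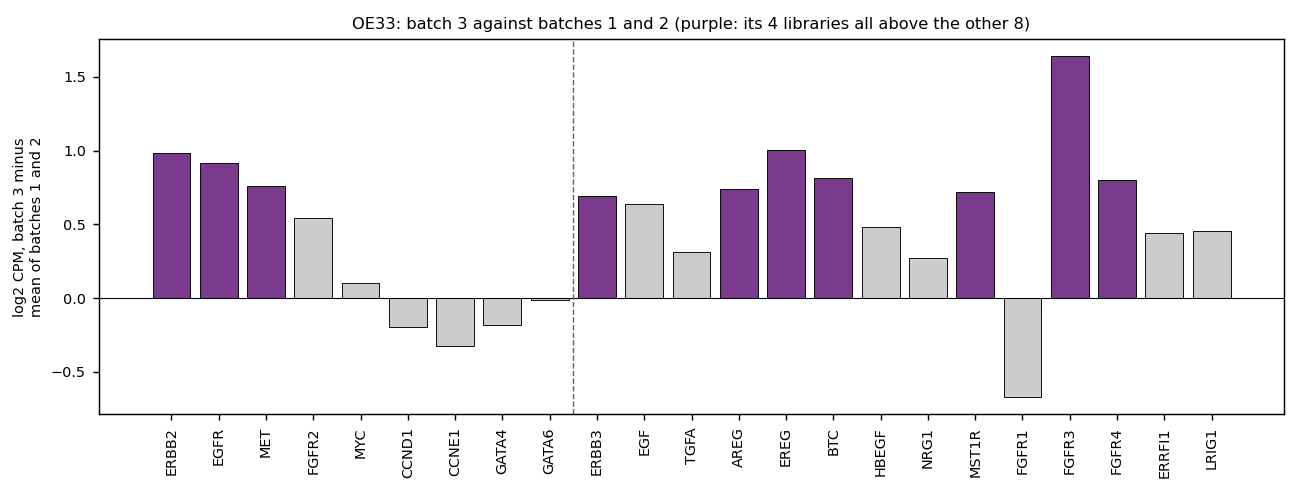
Log2 CPM of batch 3 minus the mean of the other batches in OE33, with 1 bar per gene. The 9 genes stand beside the 14 tested receptor partners and ligands. Coloured bars mark genes whose 4 libraries of batch 3 all lie above the other 8. Of the 9 genes these are ERBB2, EGFR and MET, and the remaining 6 are not marked.

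Genes with the most similar course were sought for each member, by the root mean square difference of the 8 centred group means of log2 CPM, among 15181 genes whose group means span more than 1. This is a description over 8 groups that share clones. For MET the 3 nearest were ST7, LMTK2 and AGFG2 (0.10 to 0.13 on the log2 scale), all on chromosome 7. For ERBB2 they were PPARD, LIPM and HCG4B, for EGFR ITGB1, DIAPH1 and MYRF, and for MYC SH3GL1, SORD2P and NPRL3, none of them on the member's chromosome. For GATA6 they were LAMB2, AC122129.1 and PIK3CD, for GATA4 FAM83F, PRRG4 and DPP4, and for CCNE1 WASH8P, ADAM12 and PQLC1. FGFR2 had no close match, its nearest gene PCDHGA10 differing by 0.59. CCND1 spanned only 0.98 over the 8 groups and was not matched.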

How the data were processed

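The authors selected poly(A) RNA, aligned paired reads to the GRCh38 build by HISAT2 2.0.5, and featureCounts 1.5.0 gave the counts, as listed in the submitters' processing notes. The deposited table holds raw counts of 58735 genes in 24 libraries, and 0 sample columns lacked a sample. The strand setting and the annotation release are not given in the sources used here, so reads of overlapping genes and paralogs may be shared. Groups and batches were taken from the labels. Values of some listed genes are not reported here.

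Counts were analysed in R 4.3.3 with edgeR 4.0.16. Genes with a total of at least 5 reads and a nonzero count in at least 4 libraries of a fit were kept, which left 20426 genes in OE33, 22782 in SK-GT-4 and 25181 over both lines. Each line had its own fit, with TMM scaling, the group as the factor of interest and the batch as a block, and was tested by the quasi-likelihood test with Benjamini-Hochberg adjustment over all genes, with a threshold of 0.01. The lines were compared in 1 fit of all libraries with a batch block per line. The batch numbers are stated in the labels. The deviations from the group means of libraries that share batch and genotype correlated at a median r of 0.360 in OE33 (0.187 to 0.550) and 0.258 in SK-GT-4 (0.0868 to 0.532). For libraries that share the batch but not the genotype it was 0.279 in OE33 (0.0531 to 0.464) and 0.148 in SK-GT-4 (-0.490 to 0.359). CPM used TMM factors, RPKM also the gene lengths of the deposited table, and log2 CPM a prior count of 2. The SE of an edgeR log2 difference was computed from that difference and the F statistic of its test, and the 95% interval from this SE. Counting intervals are exact at 95% and, like the floor of 3 reads over a group, cover counting error only. The fit was run on simulated counts with a fixed dispersion, no batch effect and changes only in genes with many reads. Changes at low counts and batch effects were thus not covered. Neighbours were genes within 5 Mb by lower coordinate.

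The 9 genes, the lists of pathway genes and markers, and the tests were chosen with earlier results of these data known. Named genes were the 9, CGAS, listed genes that passed the threshold (at most 4 a list, or those with the smallest p), the nearest protein-coding genes and the 3 genes of most similar course. Genes named further along the ERBB2 and MET windows, and the other markers and listed genes given with values, were chosen after their values were seen. Alternatives were DESeq2 1.42.0, other filters, blocks, thresholds, windows and left-out libraries. The batch 3 comparison, the difference between lines of the cGAS KO effect and neighbours with at least 1 CPM were added after the data were seen. Figures were drawn with matplotlib 3.10.9 in Python 3.11.15.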

Additional observations from a re-analysis of the deposited data

Results flagged for a closer look

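Within each line and genotype the 6 libraries of both treatments were examined for a library far from the others, by Dixon's criterion for 6 values. Of 40 sets (the 9 genes and CGAS in 4 clones), 5 held such a library, where chance gives about 1 in 20. EGFR in SK-GT-4 Cas9 cells was low in the MPS1i library of batch 2, at 36.05 CPM. FGFR2 in SK-GT-4 cGAS KO cells had 0.0813 CPM in the MPS1i library of batch 2, which is 2 reads where the other 5 libraries had 0. GATA4 in OE33 Cas9 cells was low in the MPS1i library of batch 3, at 9.61 CPM. In OE33 cGAS KO cells the DMSO library of batch 2 was high both for GATA4, at 24.0 CPM, and for CGAS, at 15.6 CPM.

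The effect of cGAS KO differed between the lines for FGFR2, by a fitted 9.64 with DMSO and 7.58 with MPS1i on the log2 scale (OE33 minus SK-GT-4, adjusted p = 0.000466 and 0.000351, edgeR). Both values rest on 0 or 2 reads in the SK-GT-4 cGAS KO group and depend on the prior count, so their size is no bound. For CCNE1 with DMSO the difference was 1.23, with every OE33 batch above 0 and every SK-GT-4 batch below 0, and the test of the difference gave an adjusted p of 0.015 (edgeR), above the threshold of 0.01.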

How the results depend on the processing

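The number of the 9 genes called moved with the processing in the clone comparisons. In OE33, without the replicate block 0 were called under each treatment (1 with DMSO and 3 with MPS1i in the blocked fit), and edgeR's filterByExpr gave 0 and 0. Over all genes these settings gave 15 and 17, and 189 and 390. With DMSO, a threshold of 0.05 gave 2 and no filter 3. In SK-GT-4, where the blocked fit called 0, a threshold of 0.05 gave 2 and 2, no filter 1 and 1, and DESeq2 3 and 3 with DMSO and MPS1i. Over all genes these settings gave 1115 and 1018, 647 and 529, and 1495 and 1450. The cause was not tested. Leaving out libraries gave 0 to 3 called members in OE33 under each treatment, 0 to 1 in SK-GT-4 under each, and 3 to 6 between the lines. In no setting was a member called for an effect of MPS1i, although a block per genotype and batch raised the genes called to 93 and 101 in the OE33 clones.

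Over all genes, the alternatives called 11 to 1046 genes for OE33 with DMSO (300 as reported), 17 to 1631 with MPS1i (580), 0 to 1495 for SK-GT-4 with DMSO (400), 0 to 1450 with MPS1i (321) and 2994 to 8981 between the lines (6589). Some directions turned when libraries were left out. For cGAS KO against Cas9 in OE33 with DMSO, ERBB2 ran from -0.045 to 0.12, EGFR from -0.11 to 0.28 and GATA4 from -0.35 to 0.27. With MPS1i, EGFR ran from -0.16 to 0.34, CCNE1 from -0.027 to 0.26 and GATA4 from -0.29 to 0.034. In SK-GT-4 with DMSO, CCND1 ran from -0.57 to 0.20. For MPS1i against DMSO, FGFR2 ran from -0.12 to 0.79 in OE33 cGAS KO and from -0.051 to 3.24 in SK-GT-4 cGAS KO cells, EGFR from -0.63 to 0.15 in SK-GT-4 Cas9 cells, and the difference of the FGFR2 effects in SK-GT-4 from -3.52 to 0.65.

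Neighbour medians also moved with the window. With 1 Mb they were -0.17 for MET, 0.11 for FGFR2, 0.12 for CCND1 and 0.35 for CCNE1 in OE33, and -0.72 for FGFR2, -0.30 for MYC and 0.11 for CCNE1 in SK-GT-4. With 10 Mb in SK-GT-4 they were 0.46 for MET, 0.071 for MYC and -0.17 for CCND1, and for MYC with genes of at least 1 CPM 0.10. With DESeq2's size factors GATA4 in OE33 cGAS KO MPS1i cells was 11.8 CPM. Low counts limit FGFR2 and GATA4 in SK-GT-4, and fitted values that rest on groups with 0 to 2 reads depend on the prior count.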
